A study of Homo sapiens with 6 samples.

Results

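The genes described here are 41 transcripts listed together as androgen-induced, most of them with known roles in the luminal cells of the prostate. They were taken by name from the deposited table of 60664 human Ensembl gene identifiers, and all 41 were found there. The libraries are labelled as from a derivative of LNCaP, a human prostate cancer cell line, that resists enzalutamide, a drug that blocks androgen signalling. The cells carried either the hairpin RNA labelled shNC (3 libraries) or a stable hairpin against PDGFC, a secreted platelet-derived growth factor (shPDGFC, 3 libraries). The medium of both groups was DMEM plus 10% FBS. The labels speak of pooled RNA, and they give neither separate cultures for the libraries of a group, nor whether a group was a single clone, nor whether enzalutamide was in the medium. The p-values below therefore reflect the spread among libraries alone, and that spread may be technical.

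Androgen signalling acts on genes through DNA response elements built from copies of a 6-base unit, often with the pioneer factor FOXA1. In luminal prostate cells the genes induced include secreted proteases of semen, membrane proteins used as prostate markers, and enzymes of lipid and sugar metabolism. Steroid receptors mature in complexes with the chaperone HSP90, and FKBP5, which androgen induces, encodes a member of such complexes. KLK3 encodes prostate-specific antigen, and LNCaP is known as a line that secretes this antigen.

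The libraries held between 17360455 and 23930217 reads, and between 14996 and 15400 genes per library reached 1 RPKM (reads scaled by gene length and library size). The targeted gene, PDGFC, averaged 8.35 and 2.65 RPKM in shNC and shPDGFC, with SDs of 0.32 and 0.31 (n = 3). Of 13 luminal prostate markers 9 reached the tested level, of which 1 rose and 2 fell, and KLK3, MSMB and KRT19 were under 0.2 RPKM in every library. For comparison with this and the next marker counts, 14.2% of all genes tested rose and 15.6% fell. The luminal markers KLK3, ACP3, MSMB, FOLH1, SLC45A3 and TMPRSS2 are also members of the set described here. FOXA1 and HOXB13 are also among the cofactor genes described below. KLK3 is a defining product of LNCaP, so its near absence is unlike that line. KLK2 and SPDEF were also under 0.2 RPKM in every library. In shNC the mesenchymal markers VIM (270.4 RPKM) and CDH2 (41.5 RPKM) stood above the luminal marker CDH1 (1.37 RPKM). On the other side, KRT8, KRT18, EPCAM, FOXA1 and HOXB13 reached 1 RPKM in every library. The cells are labelled as a derivative of LNCaP, and their identity was not tested. KRT8 (81.1 and 86.3 RPKM in shNC and shPDGFC) did not pass the test, KRT18 rose (60.7 to 77.2 RPKM) and EPCAM fell (10.4 to 8.61 RPKM). CDH1 also fell (1.37 to 0.789 RPKM), and did not pass with no filter or with the replicate block (limma, adjusted p = 0.0542 and 0.0543). It reached 1 RPKM in the shNC libraries alone. It thus entered the test only through the group where it was high, so the filter favoured a fall. CDH1 was not tested when an shNC library was left out. The call for EPCAM was lost without any of 4 libraries (shNC replicates 1 and 2, shPDGFC replicates 2 and 3, limma, adjusted p = 0.0742 to 0.0797). It was also lost with no filter (0.0815). KRT8 passed without shPDGFC replicate 2 (limma, adjusted p = 0.0185) and with limma-voom (0.00706). Of 8 stromal and mesenchymal markers 4 of 6 tested rose and 0 fell. Only COL1A1 had a negative log2 change among the 6 (6.01 to 5.15 RPKM, log2 change -0.19). Its groups did not overlap, and it narrowly did not pass (limma, adjusted p = 0.0502). The most abundant of those that rose were VIM (270.4 to 332.6 RPKM), CDH2 (41.5 to 47.7 RPKM) and FN1 (19.0 to 20.7 RPKM). The largest log2 change was that of COL3A1 (0.883 to 1.46 RPKM), which reached 1 RPKM in the shPDGFC libraries alone. COL3A1 thus entered the test only through the group where it was high, so the filter favoured a rise. It was not tested when an shPDGFC library was left out. The call for FN1 was lost without shNC replicate 1 or 2 or any shPDGFC replicate (limma, adjusted p = 0.0669 to 0.124), and with no filter (0.0994). VIM accounted for most of the sum of the stromal and mesenchymal markers, and for most of its rise. The summed level of these markers lay between 344.6 and 353.7 RPKM in shNC and between 416.0 and 427.2 RPKM in shPDGFC. That of the luminal markers lay between 174.6 and 178.2 RPKM and between 187.3 and 202.3 RPKM, most of it KRT8 and KRT18, while 6 of the 9 tested luminal markers had a negative log2 change (median -0.06). Of 7 neuroendocrine markers 1 of 5 tested rose and 0 fell. The marker that rose was CHGA, from 1.605 RPKM in shNC to 2.13 RPKM in shPDGFC (limma, adjusted p = 0.021). CHGA did not pass with no filter (limma, adjusted p = 0.068). ENO2 was at 29.8 and 30.05 RPKM, SYP at 7.41 and 6.62 RPKM and CHGB at 2.87 and 2.85 RPKM. SYP passed as lower without shNC replicate 2 (adjusted p = 0.0401). The neuroendocrine markers summed to between 42.01 and 44.8 RPKM in shNC and between 42.6 and 44.9 RPKM in shPDGFC. The 5 basal markers summed to between 1.56 and 1.92 RPKM in shNC and between 1.37 and 1.67 RPKM in shPDGFC, nearly all of it NGFR (1.62 and 1.48 RPKM), with TP63 and KRT15 under 0.2 RPKM. The 6 endothelial and leukocyte markers summed to under 1 RPKM in every library, with CD14 at 0.355 and 0.523 RPKM, VWF at 0.109 and 0.0687 RPKM and CD3E at 0.0422 and 0.0399 RPKM. The part of these marker changes in the results below was not tested, and in bulk RNA fewer cells of a type and less RNA per cell cannot be told apart.

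The 41 genes divided into an expressed and a barely detected set. In all 6 libraries 24 of them reached 1 RPKM, and these 24 were tested. A further 6 (TMPRSS2, PSCA, PTGER4, GNMT, MYBPC1 and C1orf116) lay between 0.2 RPKM and the tested level in at least 1 library. The other 11 stayed under 0.2 RPKM in every library. These were KLK2, KLK3, KLK4, MSMB, ADAM7, STEAP4, TRPM8, HERC3, SPDEF, ERG and NNMT, and together they had between 13 and 26 reads per library. Just above the tested level stood FOLH1 and ZBTB16, at 1.19 and 1.23 RPKM over all libraries, and just below it TMPRSS2, at 0.698 RPKM or less. The 24 tested genes ran up to 41.5 RPKM for NDRG1, with a median of 12.5 RPKM against 8.43 RPKM over all 15337 genes tested.

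**Figure D1:**
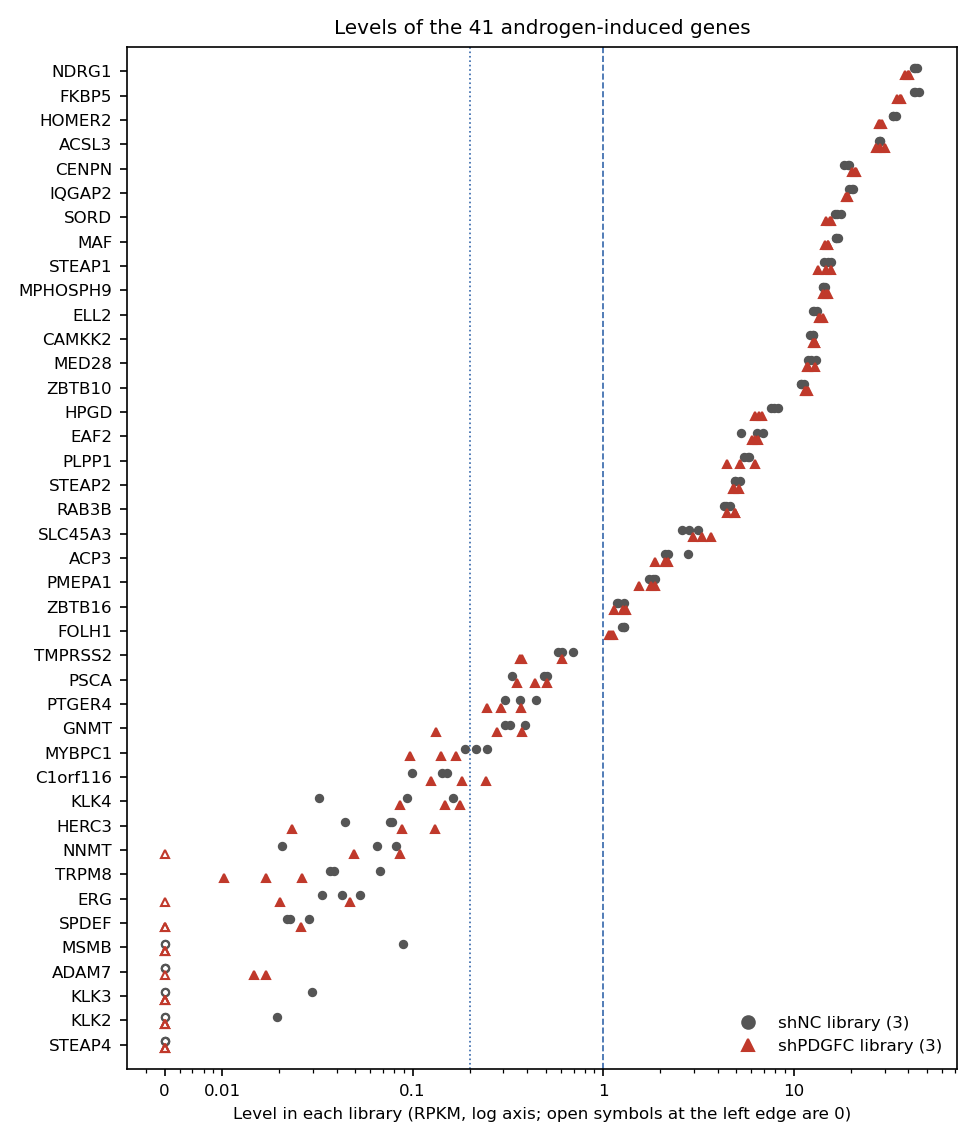
Level of each of the 41 androgen-induced genes in each library, in RPKM on a log axis, with shNC libraries as circles and shPDGFC libraries as triangles; open symbols at the left edge stand for 0. The dashed line marks 1 RPKM, the tested level, and the dotted line 0.2 RPKM: 24 genes lie to the right of the dashed line in all 6 libraries and 11 stay left of the dotted line.

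The DNA around the starts of the genes is shown for the members at either end of this range, because the data bear on whether these promoters gave RNA. RefSeq promoter windows (GRCh38.p14, 250 bases before to 50 after a gene's first listed start) were found for 28 of the 41 genes. The KLK3 window holds AGAACA, the repeat unit of the androgen response element, with its first base at -170 from the gene's start. A 15-base stretch from that unit is in capitals in the KLK3 line (chr19:50854730-50854774, plus strand). In the KLK2 line (chr19:50873248-50873292, plus strand) the capitals mark the stretch nearest to it in sequence. Its first base is at -176, and it has 14 of the 15 bases in common. The difference, counted from the 5′ end of the KLK3 stretch, is A1G.
KLK3: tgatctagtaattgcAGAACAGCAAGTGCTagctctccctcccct
KLK2: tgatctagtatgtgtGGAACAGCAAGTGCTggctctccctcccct

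Searched on both strands, so that AGAACA and TGTTCT count alike, the unit occurred in 4 of the 28 windows (KLK3, FKBP5, MYBPC1 and PMEPA1) and in 14.9% of the windows of 27305 gene symbols. The palindrome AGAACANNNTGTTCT, which contains the unit on both strands, was found in 0 of the 28 and in 1 of the 27305 windows. Of the 4 genes with the unit, FKBP5 and PMEPA1 were expressed and KLK3 and MYBPC1 were not tested. The unit's first base was at -192 in MYBPC1, at 1 in FKBP5 (first listed start) and at 23 in PMEPA1. In FKBP5 and PMEPA1 it is therefore not upstream of that start.

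CG dinucleotides had a higher median count in the windows of the expressed genes, which is given as a description with no test. The 16 tested genes with a window had a median of 27.5 CG per window (2 to 52), the 12 untested genes a median of 6.5 (1 to 53), and all symbols a median of 14. With the start richest in CG for each symbol, the medians were 30.5, 6.5 and 16. The 250 bases before the start are given for KLK3 (chr19:50854665-50854914, plus strand) and KLK2 (chr19:50873189-50873438, plus strand), which gave almost no reads. Beside them stand HOMER2 (chr15:82952721-82952970, minus strand) and the 2 listed starts of FKBP5 (chr6:35728584-35728833 and chr6:35688916-35689165, minus strand), which were among the most abundant members. Capitals mark CG dinucleotides, of which these stretches hold 1, 2, 37, 3 and 29 in the order of the lines. The files do not show which FKBP5 start was used.
KLK3: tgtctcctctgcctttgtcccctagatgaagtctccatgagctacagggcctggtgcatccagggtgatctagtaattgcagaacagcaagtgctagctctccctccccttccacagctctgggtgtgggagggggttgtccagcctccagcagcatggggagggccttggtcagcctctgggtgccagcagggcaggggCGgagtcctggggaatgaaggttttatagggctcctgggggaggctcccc
KLK2: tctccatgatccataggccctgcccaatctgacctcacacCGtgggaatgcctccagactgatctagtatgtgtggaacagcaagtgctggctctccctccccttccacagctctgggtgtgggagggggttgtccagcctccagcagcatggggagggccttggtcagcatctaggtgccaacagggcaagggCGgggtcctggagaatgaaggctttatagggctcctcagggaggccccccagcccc
HOMER2: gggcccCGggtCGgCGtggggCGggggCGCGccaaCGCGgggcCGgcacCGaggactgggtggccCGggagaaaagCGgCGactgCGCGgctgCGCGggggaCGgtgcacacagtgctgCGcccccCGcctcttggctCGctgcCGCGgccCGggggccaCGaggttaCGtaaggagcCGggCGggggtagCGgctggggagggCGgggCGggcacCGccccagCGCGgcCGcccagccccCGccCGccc
FKBP5, the first listed start: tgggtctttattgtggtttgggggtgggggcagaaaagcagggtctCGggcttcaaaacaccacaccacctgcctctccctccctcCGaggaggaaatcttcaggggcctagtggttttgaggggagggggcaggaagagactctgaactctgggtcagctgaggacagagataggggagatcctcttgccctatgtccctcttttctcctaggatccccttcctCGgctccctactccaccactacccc
FKBP5, the second listed start: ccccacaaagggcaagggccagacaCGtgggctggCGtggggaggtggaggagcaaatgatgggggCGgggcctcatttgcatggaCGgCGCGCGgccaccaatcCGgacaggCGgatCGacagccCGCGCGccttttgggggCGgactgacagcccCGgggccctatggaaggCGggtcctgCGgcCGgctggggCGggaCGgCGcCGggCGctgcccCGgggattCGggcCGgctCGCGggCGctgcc

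Among the tested genes, 6 were lower and 1 was higher in shPDGFC (limma on log2(RPKM + 1), Benjamini-Hochberg adjusted p under 0.05). Across all genes tested the same rule called 15.6% lower and 14.2% higher. The members that fell were FKBP5, HPGD, HOMER2, MAF, SORD and NDRG1, and CENPN rose by 9.61%. The shPDGFC levels of the 6 lower members lay between 0.817 times (FKBP5) and 0.911 times (NDRG1) the shNC level. No member that was tested changed 1.5-fold. The median log2 change of the 24 was -0.04, against -0.01 over all genes tested, and 14 of the 24 changes were negative. Without shPDGFC replicate 1 these medians were -0.012 and -0.0101, without shNC replicate 2 they were -0.0585 and -0.0146, and without shNC replicate 3 they were -0.0247 and -0.0127. They were -0.0124 and 0.0106 with upper-quartile scaling. The groups did not overlap in 11 of the 24 (45.8%), near the 46.8% of all genes tested. Upper-quartile scaling moved the share of higher genes among all calls from 47.5% to 58.0%, and called 2 members higher and 6 lower.

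**Figure D2:**
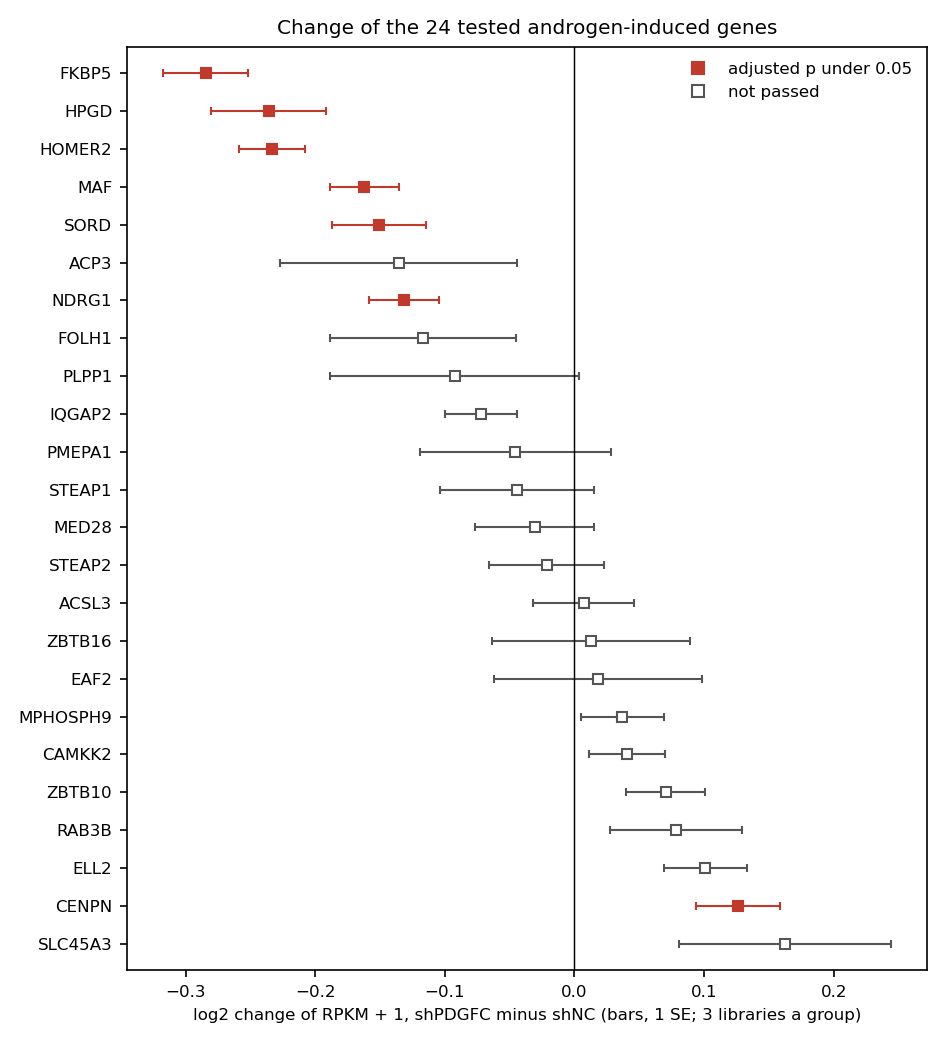
Change of each tested androgen-induced gene, as the limma estimate of the log2 change of RPKM + 1 in shPDGFC relative to shNC, with bars of 1 SE and 3 libraries a group. Filled squares passed the test: 6 of the 7 lie left of 0, from FKBP5 at -0.28 to NDRG1 at -0.13, and CENPN lies right of it at 0.13.

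The secreted proteases and other secretory products were nearly all barely detected. KLK3 had 0, 0 and 1 read in the shNC libraries and 0 in each shPDGFC library, and KLK2, the related kallikrein, had 0, 1 and 0 reads and then 0 in each. A count of 0 allows up to between 0.125 and 0.173 RPM (reads scaled by library size alone) in these libraries, from 3 reads and for counting error only. KLK4 was at 0.0931, 0.163 and 0.0323 RPKM in shNC and at 0.0855, 0.178 and 0.148 RPKM in shPDGFC. These levels overlapped between the groups and rested on 8 and 11 reads. Of the 15 KLK genes in the table, which include these 3, 12 were under 0.2 RPKM in every library and 0 reached the tested level.

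MSMB, the gene for beta-microseminoprotein, had a single read over the 6 libraries, and ADAM7, a metalloprotease-family gene, had 2. PSCA, a surface protein with the name prostate stem cell antigen, was grouped with these genes although it is not secreted. It was at 0.444 ± 0.096 and 0.432 ± 0.077 RPKM (SD, n = 3, exact permutation test, p = 0.90). The exons of PSCA overlap those of JRK on the opposite strand (7.59 and 7.50 RPKM). ACP3, prostatic acid phosphatase, was the only one of these 7 genes at the tested level. It was measured at 2.37 ± 0.37 and 2.06 ± 0.16 RPKM (SD, n = 3), with a log2 change of -0.14 ± 0.092 (SE; limma, adjusted p = 0.30).

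The membrane proteins included expressed and undetected relatives. STEAP1, STEAP2 and STEAP4 lie on chromosome 7 and encode six-transmembrane proteins, of which STEAP2 and STEAP4 reduce metal ions. STEAP1 was at 15.1, 14.5 and 15.8 RPKM in shNC and at 13.4, 15.8 and 14.8 RPKM in shPDGFC. STEAP2 was at 4.94, 4.93 and 5.22 RPKM in shNC and at 4.79, 4.88 and 5.16 RPKM in shPDGFC, whereas STEAP4 had 0 reads in every library. The groups overlapped for STEAP1 and STEAP2, and their log2 changes of -0.04 ± 0.059 and -0.02 ± 0.045 (SE) did not pass (limma, adjusted p = 0.61 and 0.75). STEAP1 has a close relative, STEAP1B (6.81 and 5.89 RPKM), with which it may share reads.

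FOLH1 encodes prostate-specific membrane antigen. It was at 1.26, 1.29 and 1.28 RPKM in shNC and at 1.11, 1.07 and 1.12 RPKM in shPDGFC. All shPDGFC libraries lay below all shNC libraries, but the log2 change of -0.12 ± 0.072 (SE) did not pass (limma, adjusted p = 0.26). FOLH1B, its near-identical copy, had 7 reads in shNC and 3 in shPDGFC. SLC45A3, the gene for prostein, had the largest positive change of the 24 and did not pass. It was at 3.14, 2.60 and 2.83 RPKM in shNC and at 3.31, 3.68 and 2.96 RPKM in shPDGFC, with overlap between the groups (log2 change 0.16 ± 0.081 SE; limma, adjusted p = 0.17).

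TMPRSS2, a transmembrane serine protease whose promoter is fused to ERG in many prostate tumours, was at 0.606, 0.698 and 0.581 RPKM in shNC. In shPDGFC it was at 0.367, 0.374 and 0.605 RPKM. Libraries 1 and 2 of shPDGFC lay below all shNC libraries and library 3 lay within their range, on 140 and 91 reads in all. An exact permutation test of the means gave p = 0.20, where 3 against 3 libraries cannot go below 0.10. ERG itself had 14 and 6 reads in the 2 groups, and whether these cells carry the fusion was not tested. PTGER4, a prostaglandin E2 receptor, was at 0.372 ± 0.071 and 0.303 ± 0.062 RPKM (SD, n = 3; exact permutation test, p = 0.30), and TRPM8, a cold-sensing channel, had 17 and 6 reads.

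Of 8 signalling, chaperone and trafficking genes 7 were tested, of which 3 fell, 0 rose and 4 did not pass. FKBP5 (ENSG00000096060, chromosome 6), a co-chaperone of steroid receptors with HSP90, was at 43.4, 45.6 and 42.9 RPKM in shNC and at 36.7, 34.8 and 36.3 RPKM in shPDGFC. Every shPDGFC library lay below every shNC library. It fell by 0.28 on the log2 scale, with an SE of 0.033 (adjusted p = 0.0015, limma), to 0.817 times its shNC level, on 10711 and 7853 reads. This was the largest change among the tested members, and 90.0% of all tested genes had a smaller absolute change.

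HOMER2 (ENSG00000103942, chromosome 15), a scaffold protein of the Homer family, was at 34.5, 33.4 and 33.1 RPKM in shNC and at 28.3, 29.01 and 28.2 RPKM in shPDGFC. The groups did not overlap, and the gene fell by 0.23 on the log2 scale, with an SE of 0.026 (adjusted p = 0.0013, limma). NDRG1 (ENSG00000104419, chromosome 8), known to be induced by hypoxia as well as by androgen, was the most abundant member. It was at 44.3, 42.7 and 43.4 RPKM in shNC and at 38.6, 40.5 and 39.7 RPKM in shPDGFC, without overlap. It fell by 0.13 on the log2 scale, with an SE of 0.027 (adjusted p = 0.011, limma).

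IQGAP2, a scaffold that binds small GTPases, was at 19.5, 20.5 and 20.3 RPKM in shNC and at 19.3, 18.9 and 19.1 RPKM in shPDGFC. The groups did not overlap, but the log2 change of -0.07 ± 0.028 (SE) did not pass (limma, adjusted p = 0.090). CAMKK2, a calcium-dependent kinase that activates AMPK, was at 12.5 and 12.9 RPKM, RAB3B, a GTPase of secretory vesicles, at 4.46 and 4.76 RPKM, and PMEPA1, an inhibitor of TGF-beta signalling, at 1.81 and 1.73 RPKM. None of these 3 passed (limma, adjusted p = 0.34, 0.28 and 0.68). HERC3, a ubiquitin ligase gene, had 21 and 24 reads.

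**Figure D3:**
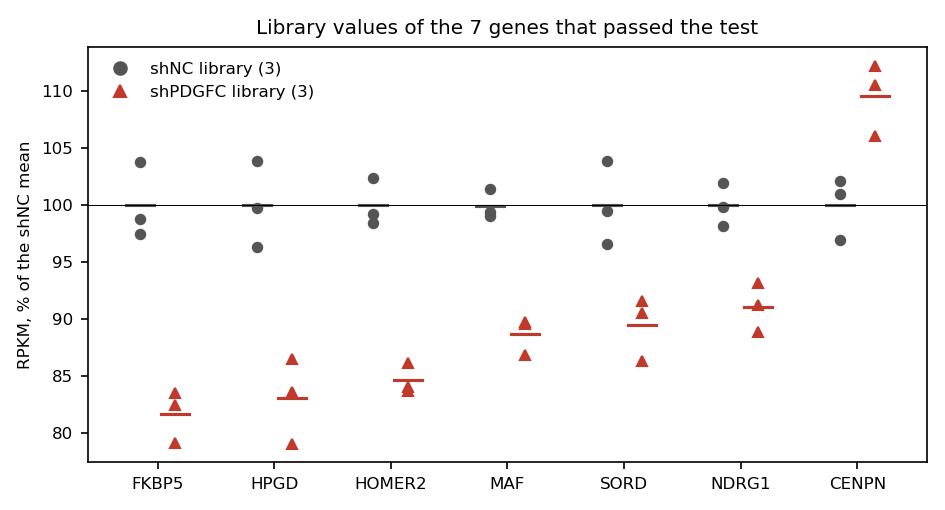
RPKM of the 7 androgen-induced genes that passed the test, as a percentage of the gene's mean in shNC (the axis does not start at 0); circles are shNC libraries, triangles shPDGFC libraries and short lines group means. The groups do not overlap for any of the 7, and the shPDGFC means lie from 81.7% of the shNC mean for FKBP5 to 109.6% for CENPN.

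Of 8 transcription and elongation factors 6 were tested, of which 1 fell and 0 rose. MAF (ENSG00000178573, chromosome 16), a basic leucine zipper factor, was at 16.8, 16.7 and 17.1 RPKM in shNC and at 15.2, 14.7 and 15.1 RPKM in shPDGFC. All shPDGFC libraries lay below all shNC libraries, and MAF fell by 0.16 on the log2 scale, with an SE of 0.027 (adjusted p = 0.0051, limma). ELL2, an RNA polymerase II elongation factor, and ZBTB10, a zinc finger factor, had shPDGFC libraries that all lay above the shNC libraries. ELL2 was at 12.9 and 13.9 RPKM and ZBTB10 at 11.1 and 11.7 RPKM, and neither passed (limma, adjusted p = 0.0505 and 0.12). EAF2, a partner of ELL proteins, was at 6.22 and 6.28 RPKM, MED28, a Mediator subunit, at 12.5 and 12.2 RPKM, and ZBTB16, a zinc finger factor also known as PLZF, at 1.22 and 1.24 RPKM. None of the 3 passed (limma, adjusted p = 0.89, 0.65 and 0.92). SPDEF, an ETS factor of prostate luminal cells, had 3 reads in shNC and 1 in shPDGFC.

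Of 6 metabolic enzymes 4 were tested, of which 2 fell and 0 rose. HPGD (ENSG00000164120, chromosome 4), which inactivates prostaglandins, was at 8.23, 7.63 and 7.90 RPKM in shNC and at 6.62, 6.85 and 6.26 RPKM in shPDGFC. The groups did not overlap, and HPGD fell by 0.24 on the log2 scale, with an SE of 0.044 (adjusted p = 0.0080, limma). SORD (ENSG00000140263, chromosome 15), sorbitol dehydrogenase, was at 17.7, 16.5 and 16.97 RPKM in shNC and at 15.6, 14.7 and 15.4 RPKM in shPDGFC. It fell by 0.15 on the log2 scale, with an SE of 0.037 (adjusted p = 0.020, limma) without overlap between the groups. SORD no longer passed when shNC replicate 1, shNC replicate 3 or shPDGFC replicate 2 was left out (limma, adjusted p = 0.0615, 0.0549 and 0.0542), nor with no filter (0.0521). Its pseudogene SORD2P, with which it may share reads, was at 1.28 and 1.54 RPKM.

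ACSL3, which activates long-chain fatty acids, was at 28.4, 28.2 and 28.5 RPKM in shNC and at 30.1, 27.0 and 28.4 RPKM in shPDGFC. The groups overlapped (log2 change 0.01 ± 0.039 SE; limma, adjusted p = 0.91). PLPP1, a lipid phosphatase, was at 5.69 ± 0.19 and 5.31 ± 0.90 RPKM (mean ± SD of 3 libraries; adjusted p = 0.51, limma), and it overlaps MTREX on the opposite strand (36.9 and 40.5 RPKM). The methyltransferase genes GNMT (0.339 and 0.262 RPKM) and NNMT (7 and 5 reads) were not tested. GNMT gave p = 0.40 by the exact permutation test and overlaps PEX6 on the opposite strand (3.89 and 3.93 RPKM).

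CENPN (ENSG00000166451, chromosome 16), a centromere protein, was the member that rose. It was at 19.45, 18.5 and 19.2 RPKM in shNC and at 21.4, 20.2 and 21.05 RPKM in shPDGFC, without overlap (log2 change 0.13 ± 0.032 SE; limma, adjusted p = 0.025). Its exons overlap those of CMC2 on the opposite strand, which was at 1.90 and 1.83 RPKM. CENPN no longer passed when shNC replicate 2 or 3 was left out (limma, adjusted p = 0.0711 and 0.0586), nor when shPDGFC replicate 1 or 3 was (0.0683 and 0.0727). It also did not pass with no filter (limma, adjusted p = 0.0581). MPHOSPH9, a protein phosphorylated in mitosis, was at 14.2, 14.6 and 14.2 RPKM in shNC and at 14.2, 14.8 and 15.2 RPKM in shPDGFC, with overlap (log2 change 0.04 ± 0.032 SE; limma, adjusted p = 0.42). C1orf116, known as specifically androgen-regulated gene, had 48 and 60 reads. MYBPC1, a myosin-binding protein gene, was at 0.216 ± 0.029 and 0.136 ± 0.036 RPKM (SD, n = 3) on 58 and 32 reads. Its groups did not overlap, and the exact permutation test gave p = 0.10, the smallest that 3 against 3 libraries allow.

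Of 21 listed genes for transcription factors, coregulators and chaperones of steroid hormone signalling (the cofactor genes) 20 were tested. Of these 9 rose and 3 fell, with a median log2 change of 0.09. Across all genes tested 14.2% rose and 15.6% fell, with a median log2 change of -0.01. The cofactor counts were 4 to 7 and 1 to 2 when a library was left out, and 5 and 1 with the replicate block. FOXA1, the pioneer factor, was at 7.29, 7.16 and 7.32 RPKM and then 6.81, 7.06 and 6.84 RPKM, lower in every shPDGFC library, and did not pass (limma, adjusted p = 0.20). HOXB13, a homeobox factor of the prostate, was at 8.71 and 8.62 RPKM (limma, adjusted p = 0.84).

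NR3C1 encodes the glucocorticoid receptor, which binds elements built from the same 6-base unit and is known to induce FKBP5 and ZBTB16. It was at 14.5, 14.8 and 14.7 RPKM in shNC and at 16.2, 16.4 and 16.2 RPKM in shPDGFC, without overlap. NR3C1 rose by 0.14 on the log2 scale, with an SE of 0.025 (adjusted p = 0.0063, limma). GATA2, a zinc finger factor of the GATA family, rose from 18.5 ± 0.66 to 20.4 ± 0.52 RPKM (mean ± SD of 3 libraries; adjusted p = 0.023, limma). GATA2 no longer passed when shNC replicate 2 or 3 or shPDGFC replicate 1 was left out (limma, adjusted p = 0.0615 to 0.0636), nor with no filter (0.0573).

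Among the cofactors, HSP90AA1, the inducible HSP90, rose from 798.2 ± 22.2 to 981.1 ± 27.0 RPKM (mean ± SD of 3 libraries; adjusted p = 0.0018, limma). KDM1A, a histone demethylase, rose from 84.1 ± 0.61 to 95.7 ± 1.1 RPKM (mean ± SD of 3 libraries; adjusted p = 0.0014, limma). The coactivator NCOA1 fell from 11.4 ± 0.22 to 10.1 ± 0.29 RPKM (mean ± SD of 3 libraries; adjusted p = 0.010, limma). FKBP4, the other FKBP co-chaperone of steroid receptor complexes, rose by 0.10 on the log2 scale, with an SE of 0.021 (adjusted p = 0.014, limma). It did not pass with the replicate block or when shNC replicate 3 or shPDGFC replicate 3 was left out (adjusted p = 0.0552, 0.0563 and 0.0528).

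**Figure D4:**
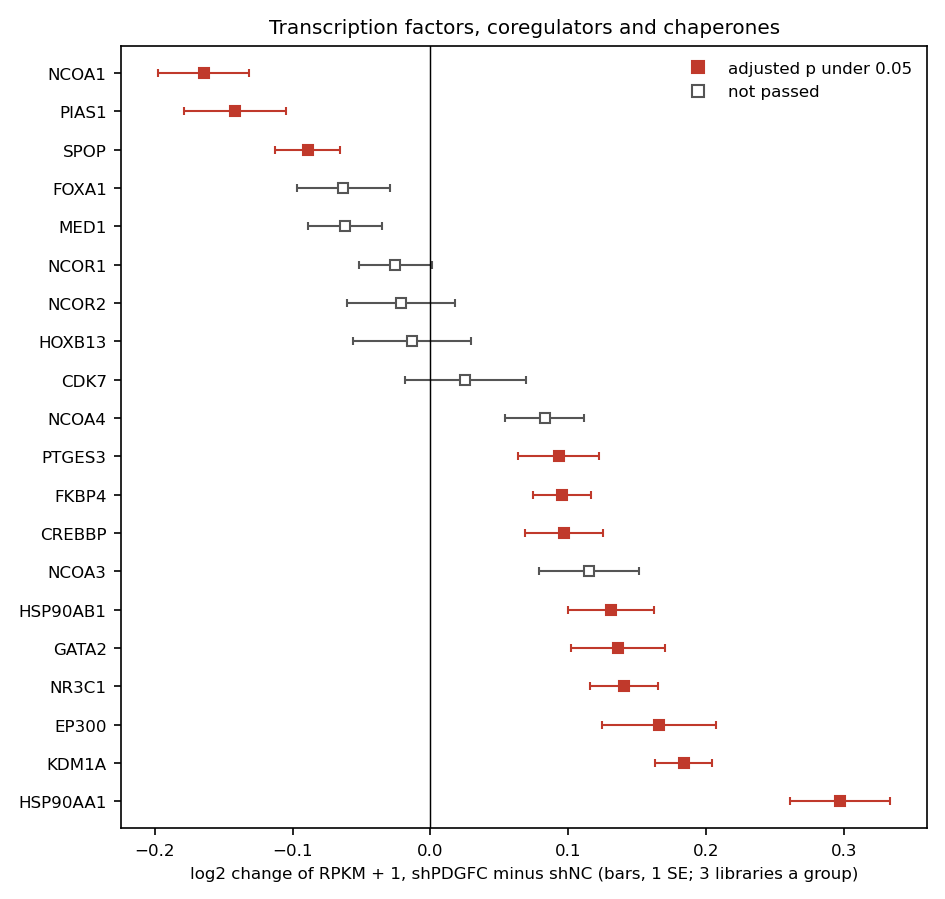
Change of the 20 tested cofactor genes, as the limma estimate of the log2 change of RPKM + 1 in shPDGFC relative to shNC, with bars of 1 SE and 3 libraries a group. Filled squares passed the test: 3 lie left of 0, led by NCOA1 at -0.16, and 9 right of it, led by HSP90AA1 at 0.30. Across all genes tested 15.6% were lower and 14.2% higher.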

How the data were processed

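The authors deposited a table of values per Ensembl gene identifier and library, which were read as RPKM because their steps gave whole reads per gene with a single total per library. No aligner, counter, annotation or strand setting is named (not given in the sources used here). Every identifier is human, although GRCm38 and mm10, which are mouse builds, stand in the submitters' processing notes. Symbols were matched for 60463 of 60664 identifiers, and overlaps come from GENCODE 29 on GRCh38. HERC3 named 2 identifiers, and the one with that name in GENCODE 29 was used.

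Whole reads were recovered for 37040 of 37040 genes with a value (tolerance 1e-04 reads). They are the smallest whole numbers that fit, so they can be too low by a common divisor. They sum to 99.45% to 99.46% of the library totals.

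Genes with at least 1 RPKM in at least 3 libraries entered a limma fit (version 3.58.1, R 4.3.3) of log2(RPKM + 1) with its trend option, without a block and with Benjamini-Hochberg adjustment over 15337 genes. This scale understates changes of genes with low RPKM. Genes below that level got an exact two-sided permutation test where a group mean reached 0.2 RPKM. Same-group libraries differed by more than sampling noise (chi-square per degree of freedom 1.46 to 2.57). The procedure was also run on simulated reads with the same dispersion for every gene, and no result given here rests on that run.

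Alternative settings were run for the members as listed in the closing section, and for the cofactor and most other named genes after seeing the data. The members, the cofactor and marker lists and the alternatives were chosen with earlier results of these data known. Values per library are given for members that passed, the 4 most abundant that did not, and KLK2, KLK3, KLK4, TMPRSS2, FOLH1, STEAP2 and SLC45A3. Of the cofactor list, FOXA1, HOXB13, GATA2, NR3C1 and the 4 with the smallest p are named, and of the marker lists the 3 most abundant. Any other gene was named after its values were seen. A gene of the cofactor list is not reported here, and the counts leave it out.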

Additional observations from a re-analysis of the deposited data

How the results depend on the processing

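The alternatives were upper-quartile scaling, limma-voom with TMM factors on the recovered reads, pseudocounts of 0.1 and 0.5, a filter of 0.5 RPKM, no filter, a replicate block, and leaving out each library. The number of members lower stayed at 5 or 6 under all of them. The number of members higher, 1 in the fit reported, was 2 with upper-quartile scaling, 4 with limma-voom, 0 with no filter, and from 0 to 1 when a library was left out. The median log2 change of the tested members was -0.0124 with upper-quartile scaling and lay between -0.0585 and -0.012 when a library was left out. Of 312 member values under an alternative, 299 kept their side of the threshold, 9 lost the call (SORD and CENPN) and 4 gained it. The gains were ELL2 (adjusted p = 0.0386 with upper-quartile scaling, 0.00783 with limma-voom), ZBTB10 (0.0234 with limma-voom) and RAB3B (0.0334 with limma-voom). The sign changed in 10 of the 312 values, in 8 members that did not pass in either fit (STEAP1, STEAP2, PMEPA1, MED28, EAF2, ZBTB16, ACSL3 and PLPP1), and in 0 of the members that passed. No pairing by the replicate numbers in the titles was seen (correlations of same-numbered deviations between -0.111 and -0.018). With 3 libraries a group, this cannot exclude shared cultures or batches. With the replicate block 1628 genes were higher and 1841 lower, and 1 member was higher and 6 lower. Of the cofactor genes, 9 higher and 3 lower in the fit reported, 4 and 1 passed with no filter, 5 and 1 with the replicate block, and from 4 to 7 and from 1 to 2 when a library was left out. With no filter 1524 genes were higher and 1676 lower, where 37040 genes were tested. Few reads limit the precision for the 17 members under the tested level. The exact permutation test of 3 against 3 libraries allows no p below 0.10, and the limma fit with no filter has no such limit.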
